A study of Mus musculus with 11 samples.

Results

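Newborn mouse ovaries lacking Sohlh1 were compared directly with newborn mouse ovaries lacking Sohlh2. The members were all samples titled Sohlh1 KO (4 arrays, numbered 1 to 4) and all samples titled Sohlh2 KO (3 arrays, numbered 2 to 4), which made 7 of the 11 samples of the series. The other 4 arrays were wild-type newborn ovaries (WT). All 3 genotypes were on a mixed C57BL/6/129S6/SvEv background, and the labels give no other allele or treatment. How each allele was made, whether ovaries were pooled and whether replicates came from separate animals are not given in the sources used here, so p-values measure the spread between these samples, which may be technical. Labelled cRNA of each sample was read on a bead array (Illumina MouseWG-6 v2), and 13350 annotated genes were measured well enough to be tested. The 3 Sohlh2 KO arrays lay on one chip with Sohlh1 KO 3 and 4 (chip 2 here), while Sohlh1 KO 1 and 2 lay on the other chip with the 4 WT arrays (chip 1 here), so the WT and Sohlh2 KO arrays share no chip. Every level below is a normalised log2 intensity and every difference is Sohlh1 KO minus Sohlh2 KO on the log2 scale, unless another is named.

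SOHLH1 and SOHLH2 are basic helix-loop-helix transcription factors made in germ cells, where they can pair with each other, and each is needed for the primordial follicle to form and for the oocyte to begin growing. Loss of either gene is known to leave ovaries without growing follicles and to cause the loss of oocytes. Since the factors can act as partners, setting one knockout against the other asks which transcripts depend on one factor and not on the other. RNA of a whole ovary also holds RNA of pregranulosa cells, stroma, vessels and blood, and fewer cells of a type cannot be told apart from less RNA per cell.

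The knockouts differed at few genes. Of the 13350 genes tested, 5 passed an adjusted p under 0.05 in the direct comparison, which is 0.0375% of all genes (limma's moderated test with Benjamini-Hochberg adjustment over all genes). Mpo, Ctsg, Srgn and Unc13d were higher in Sohlh1 KO (4 genes, 0.03%), and Efcab11 was lower (1 gene, 0.00749%). In the same model, 4366 genes (32.7%; 16.3% higher and 16.4% lower) passed in Sohlh1 KO against WT and 3405 genes (25.5%; 12.5% higher and 13% lower) in Sohlh2 KO against WT, and both of these comparisons use the same 4 WT arrays. The median absolute difference was 0.133 between the knockouts, while it was 0.288 for Sohlh1 KO against WT and 0.277 for Sohlh2 KO against WT. The median 95% interval of a gene reached 0.375 to either side of its difference, and for 12612 genes (94.5%) the whole interval lay within a 2-fold change in either direction. At an unadjusted p under 0.05 stood 1136 genes (8.51%), 485 of them higher (3.63%) and 651 lower (4.88%).

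The count of called genes depended on the arrays. Leaving out Sohlh1 KO 1, which had the lowest mean correlation with its own group (0.972, against 0.979 to 0.981 for the other Sohlh1 KO arrays and 0.989 to 0.991 for the Sohlh2 KO arrays), gave 69 called genes, while leaving out Sohlh1 KO 3 or Sohlh2 KO 4 gave 1 in each case. Without Sohlh1 KO 2 there were 8, and without a WT array 2 to 3. Each Sohlh1 KO array had a higher mean correlation with the Sohlh2 KO arrays than with its own group. With Sohlh2 KO it was 0.977 for Sohlh1 KO 1 and 0.982 to 0.983 for the other Sohlh1 KO arrays. Fitting chip as a block rests the difference on the 5 arrays of chip 2, and 26 genes then passed (0.195%), 21 of them higher (0.157%) and 5 lower (0.0375%). This count ran between 10 and 77 when 1 array was left out. The arrays of chip 2 alone gave 21 called genes (0.157%), 18 higher (0.135%) and 3 lower (0.0225%). The median SD of a gene within Sohlh1 KO was 0.268 over both chips and 0.16 on chip 2, against 0.148 within Sohlh2 KO and 0.171 within WT. The filter on dim probes kept a probe that was above background on at least 3 of the 11 arrays, and 537 of the 13350 genes passed it only through the Sohlh1 KO arrays, 1 of the 5 called genes (Ctsg) and 10 of the 26 block calls among them. Such genes were tested because of the group in which they are high, so their p-values are descriptions.

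More genes were at least 2-fold higher in Sohlh1 KO than lower, counting genes tested only through the Sohlh1 KO arrays. There were 75 genes at least 2-fold higher in Sohlh1 KO (0.562%) and 36 at least 2-fold lower (0.27%), counted by the size of the fitted difference and without a test. Of the 75 higher genes, 29 belonged to lists of blood cell genes (18 granulocyte and 9 red blood cell genes among them), while of the 36 lower genes 2 did. Oocyte lists held 1 of the 75 and 2 of the 36. Of the 13350 genes, 537 passed the filter on dim probes only through the Sohlh1 KO arrays. Among them were 9 of the 28 tested granulocyte genes and 4 of the 16 tested red blood cell genes. Of the 75, Ctsg, Elane, Prg2, Ms4a3, Cebpe, Ngp, Ear6, Gfi1b, Ermap and Paqr9 were such genes. How many others of the 75 were such genes was not counted, so these counts and their direction are descriptions. The lists were chosen with earlier results of these data known. At an unadjusted p under 0.05 (limma) more genes were lower (651) than higher (485). In the plot of the difference by level most granulocyte genes lie above 1, while Hba-a1 of the red blood cell list lies at 0.02. Most of the 75 higher genes belong to neither list.

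**Figure D1:**
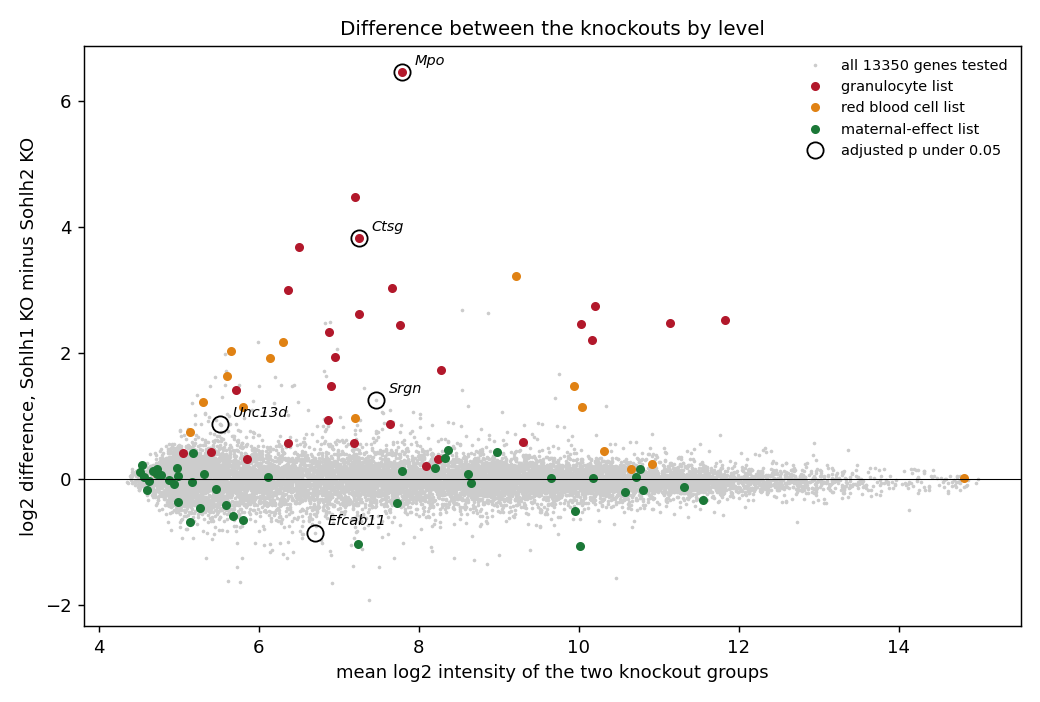
Log2 difference between Sohlh1 KO (n = 4) and Sohlh2 KO (n = 3) of each of the 13350 genes tested (y axis, log2 scale) against the mean log2 intensity of both knockout groups (x axis). Genes of 3 lists are coloured and the 5 genes with an adjusted p under 0.05 are circled; Mpo lies highest at a fitted difference of 6.46, and most granulocyte genes lie above 1.

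The knocked-out genes were read as a check of the labels. Sohlh1, on chromosome 2, was at 8.43, 8.48, 8.83 and 9.04 in Sohlh1 KO and at 8.58, 8.78 and 8.75 in Sohlh2 KO, with a WT mean of 11.26. The knockouts overlapped fully (difference -0.01, 95% interval -0.36 to 0.34, adjusted p = 0.997), so the Sohlh1 probe does not tell these labels apart. Sohlh2, on chromosome 3, was at 6.35, 5.65, 5.45 and 5.38 in Sohlh1 KO and at 4.66, 4.76 and 4.68 in Sohlh2 KO. The Sohlh2 groups did not overlap, and the probe was above background on all 4 Sohlh1 KO arrays and on 0 of 3 Sohlh2 KO arrays. Its level was at least 1.48-fold higher in Sohlh1 KO, counting the Sohlh2 KO arrays at their background level, but the fitted difference of 1.01 did not pass (adjusted p = 0.081, 95% interval 0.57 to 1.44). It passed without Sohlh1 KO 1 (0.794, adjusted p = 0.0183), and the chip block gave 0.71 (adjusted p = 0.21). Against WT the Sohlh2 level was higher in Sohlh1 KO by 0.7 (adjusted p = 0.0115). In Sohlh2 KO the difference from WT of -0.31 did not pass (adjusted p = 0.284), so this probe does not show a fall in Sohlh2 KO. The faint signal in WT (mean 5.01, above background on 3 of 4 arrays) limits this probe, and whether either probe lies in a deleted part of its gene is not known from the labels.

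Of the 28 gene lists examined, which were chosen with earlier results of these data known, granulocyte genes had the highest median difference. Granulocytes, the cells that include neutrophils and eosinophils, fill their first granules at the promyelocyte stage with myeloperoxidase and serine proteases and make the later granule proteins as they mature. The granulocyte list had 35 genes, of which 28 passed the filter on dim probes. All 28 had a higher mean in Sohlh1 KO, 2 were called (Mpo and Ctsg) and 19 had an unadjusted p under 0.05 (3.63% of all genes were higher at that level), with a median difference of 2.07 beside -0.0162 for all genes. Of the 28 genes, 9 passed the filter only through the Sohlh1 KO arrays, among them Ctsg, Elane, Prg2, Ms4a3, Cebpe and Ngp, so these counts are descriptions. The other 19 were all higher, with 1 called, 12 at an unadjusted p under 0.05 and a median of 1.73. Under the chip block 7 of the 28 passed, 2 of them among those 19, and the median of the 28 was 2.16. The list mixes stages of the lineage, and the genes below are grouped as early or late by what each is known for.

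Mpo, which encodes myeloperoxidase, was at 10.37, 9.12, 12.21 and 12.37 in Sohlh1 KO and at 4.52, 4.55 and 4.59 in Sohlh2 KO. It was above background on every Sohlh1 KO array and on 0 of 3 Sohlh2 KO arrays, with no overlap. It was at least 58.7-fold higher in Sohlh1 KO (adjusted p = 0.0011, and 1.79e-07 under the chip block). WT ovaries stood between the knockouts for Mpo, at 6.34 ± 0.3 (SD, n = 4), so that it rose in Sohlh1 KO against WT (4.68, adjusted p = 2.49e-05) and was at least 2.3-fold lower in Sohlh2 KO than in WT (adjusted p = 0.0432). Its other 3 kept probes gave fitted differences of 5.07, 3.19 and 1.99.

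Ctsg, which encodes the granule protease cathepsin G, was at 8.59, 7.72, 9.88 and 10.49 in Sohlh1 KO and at 4.76, 5.88 and 5.36 in Sohlh2 KO. Ctsg was above background on 4 of 4 Sohlh1 KO arrays, 2 of 3 Sohlh2 KO arrays and 0 of 4 WT arrays, so it was tested only because of its Sohlh1 KO level. The groups did not overlap, and Ctsg rose 14.3-fold in Sohlh1 KO (difference 3.83, 95% interval 2.74 to 4.93, adjusted p = 0.0205). Within chip 2 the difference was 4.85. The call ended in 10 of 27 alternatives, among them the fits without Sohlh1 KO 3 (adjusted p = 0.0616), Sohlh2 KO 2 (0.0835), Sohlh2 KO 4 (0.0857) or one of the WT arrays 1 to 3 (0.0504 to 0.0552).

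Other genes of the first granules were also highest on the chip 2 arrays of Sohlh1 KO. Elane, the gene of neutrophil elastase, was at 7.41, 6.44, 10.08 and 9.46 in Sohlh1 KO and at 4.65, 4.63 and 4.7 in Sohlh2 KO. It was above background on 0 of 3 Sohlh2 KO arrays and at least 9.23-fold higher in Sohlh1 KO, with an adjusted p = 0.061 (1.33e-06 under the chip block). Its neighbour on chromosome 10, Prtn3, the gene of proteinase 3, was at 8.8, 7.08, 10.37 and 10.46 in Sohlh1 KO and at 6.64, 5.88 and 5.9 in Sohlh2 KO (difference 3.04, adjusted p = 0.0948). In both genes Sohlh1 KO 3 and 4, the arrays of chip 2, stood highest. The chip block gave a difference of 4.28 for Prtn3 (adjusted p = 0.000804). Of these genes Prtn3, above background on all 7 knockout and all 4 WT arrays, did not depend on the Sohlh1 KO arrays to be tested, while Elane did.

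Prg2, the gene of eosinophil major basic protein, was at 7.12, 8.62, 11.04 and 10.98 in Sohlh1 KO and at 4.86, 5.07 and 4.95 in Sohlh2 KO. It was at least 19.7-fold higher in Sohlh1 KO (adjusted p = 0.0524, and 3.2e-06 under the chip block). Ms4a3, a membrane protein of myeloid precursors, was at 6.98, 6.44, 8.58 and 9.44 in Sohlh1 KO and at 4.7, 4.84 and 5.03 in Sohlh2 KO, a level at least 6.58-fold higher (adjusted p = 0.0666, and 1.65e-05 with the block). Cebpe, a transcription factor of granulocyte maturation, was at 5.89, 6.21, 6.45 and 7.14 in Sohlh1 KO and at 5.23, 4.72 and 5.06 in Sohlh2 KO, at least 2.43-fold higher (adjusted p = 0.061, and 0.00624 with the block). Prg2, Ms4a3 and Cebpe were above background on all 4 Sohlh1 KO arrays and on 0 of 3 Sohlh2 KO arrays, and none of the 3 pairs of groups overlapped. All 3 genes passed the filter only through the Sohlh1 KO arrays. The plot of early granulocyte genes shows that the Sohlh2 KO arrays lay near or below the background threshold for Mpo, Elane, Prg2, Ms4a3 and Cebpe. Of the 4 WT arrays, 0 were above background for Elane, Ctsg and Cebpe, 1 for Ms4a3, 2 for Prg2 and 4 for Mpo.

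**Figure D2:**
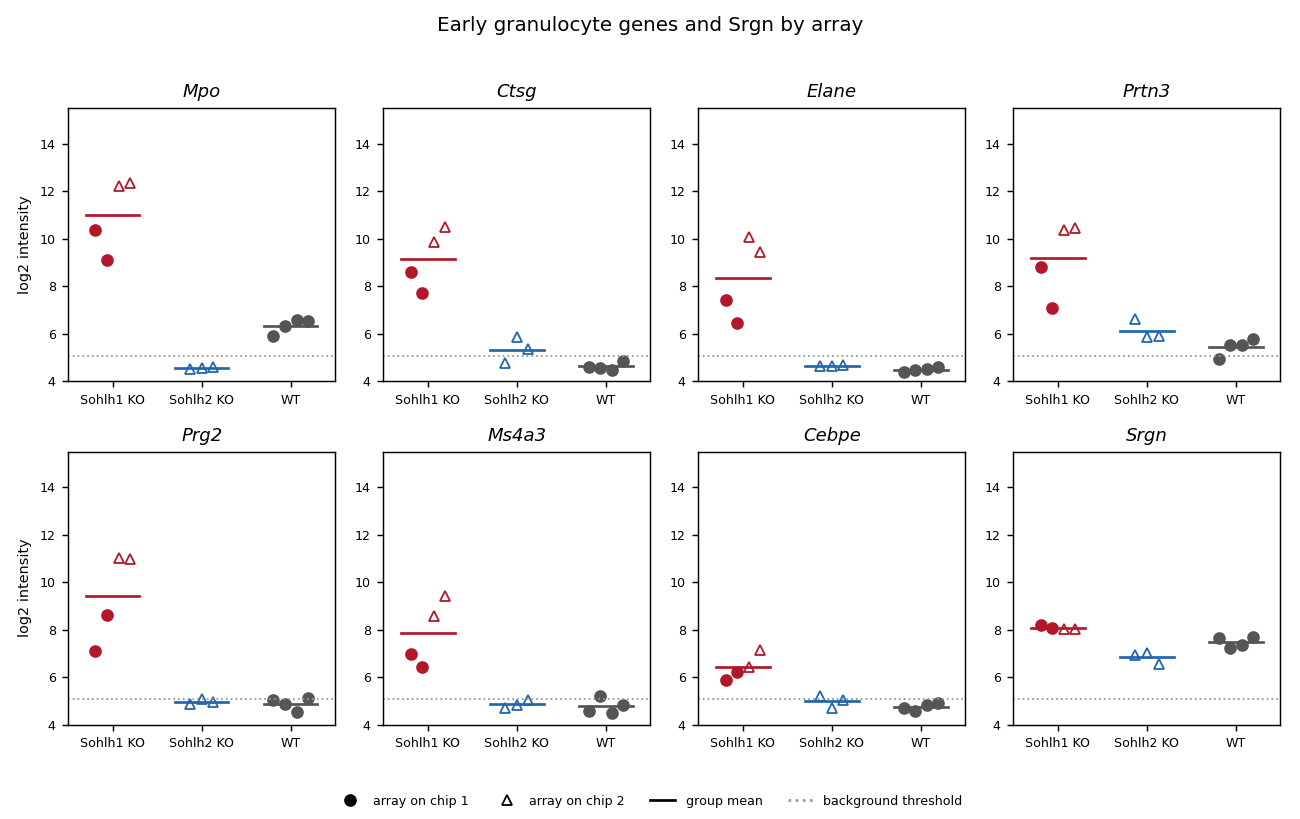
Log2 intensity (y axis) of 7 early granulocyte genes and Srgn on each array of Sohlh1 KO (n = 4), Sohlh2 KO (n = 3) and WT (n = 4), with circles for chip 1, open triangles for chip 2, a line at each group mean and a dotted line at the median background threshold of the 11 arrays. Mpo reaches 12.37 in Sohlh1 KO and stays at or below 4.59 in Sohlh2 KO, and in Mpo, Ctsg, Elane, Prtn3, Prg2, Ms4a3 and Cebpe the chip 2 arrays of Sohlh1 KO are the highest.

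The stretch of 250 bases before the gene start is printed for the 4 granule enzyme genes that were highest on the same arrays, to show what their promoters share. The sequences are RefSeq's for GRCm38.p6, 5′ to 3′ on the strand of the gene, and capitals mark matches on either strand to GAGGAA, the core that the myeloid factor PU.1 reads, and to TGTGGT, the core read by RUNX factors.
Mpo (chr11:87793534-87793783, plus strand): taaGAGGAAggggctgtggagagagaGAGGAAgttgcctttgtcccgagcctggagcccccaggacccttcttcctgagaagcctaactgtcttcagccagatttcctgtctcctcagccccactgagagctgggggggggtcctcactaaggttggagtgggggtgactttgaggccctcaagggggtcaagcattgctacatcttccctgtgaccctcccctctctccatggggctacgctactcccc
Elane (chr10:79886062-79886311, plus strand): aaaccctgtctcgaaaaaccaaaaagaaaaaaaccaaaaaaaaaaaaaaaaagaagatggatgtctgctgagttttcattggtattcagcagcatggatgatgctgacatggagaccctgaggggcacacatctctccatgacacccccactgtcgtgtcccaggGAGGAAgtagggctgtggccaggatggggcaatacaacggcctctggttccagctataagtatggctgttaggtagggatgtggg
Prtn3 (chr10:79879417-79879666, plus strand): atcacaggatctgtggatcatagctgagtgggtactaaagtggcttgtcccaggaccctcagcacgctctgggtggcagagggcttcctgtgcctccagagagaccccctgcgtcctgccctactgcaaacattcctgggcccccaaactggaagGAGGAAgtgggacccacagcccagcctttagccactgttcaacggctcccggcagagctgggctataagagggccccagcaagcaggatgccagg
Ctsg (chr14:56102575-56102824, minus strand): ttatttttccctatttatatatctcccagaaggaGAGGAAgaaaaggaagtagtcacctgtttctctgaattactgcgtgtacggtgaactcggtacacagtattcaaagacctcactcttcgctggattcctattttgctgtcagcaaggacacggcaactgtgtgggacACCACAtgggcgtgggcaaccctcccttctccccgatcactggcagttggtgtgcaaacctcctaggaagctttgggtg
Each of the 4 stretches holds GAGGAA, Mpo at 2 places and the others at 1, and GAGGAA is found in 23.3% of the 32851 stretches of that length in the table. TGTGGT was found in Ctsg alone of the 4 (14% of all stretches), and TTGCNNAA, a core of C/EBP factors, in none of the 4 (9.56% of all stretches). A match describes letters in the window and is no measured binding site.

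Genes that mature neutrophils use varied between arrays of the same genotype. S100a8, a subunit of calprotectin, was at 11.27, 14.01, 13.2 and 13.86 in Sohlh1 KO and at 9.72, 9.4 and 12.55 in Sohlh2 KO. Sohlh2 KO 4 reached above Sohlh1 KO 1, so the groups overlapped, and the difference of 2.53 did not pass (adjusted p = 0.276). Against WT (8 ± 0.59, SD, n = 4) S100a8 rose in both knockouts, by 5.09 in Sohlh1 KO (adjusted p = 8.32e-05) and by 2.56 in Sohlh2 KO (adjusted p = 0.0229). Its partner S100a9 and the protease inhibitor Stfa1 had the same overlap, with differences of 2.75 and 2.47 (adjusted p = 0.233 and 0.215).

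Camp, the gene of the granule peptide cathelicidin, was at 5.38, 10.6, 8.95 and 11.04 in Sohlh1 KO and at 5.3, 5.58 and 8.73 in Sohlh2 KO. Ngp, a neutrophil granule protein, was at 4.85, 10.12, 6.98 and 9.74 in Sohlh1 KO and at 5.19, 4.77 and 8 in Sohlh2 KO. In both genes Sohlh1 KO 1 lay with the low Sohlh2 KO arrays and Sohlh2 KO 4 lay with the high Sohlh1 KO arrays, and neither difference passed (adjusted p = 0.579 for Camp and 0.681 for Ngp). Retnlg, a resistin-like protein of neutrophils, was an exception without overlap, at 8.04, 10.05, 8.4 and 7.77 in Sohlh1 KO and at 6.18, 6 and 5.66 in Sohlh2 KO (difference 2.62, adjusted p = 0.0522). The summed linear level of the 28 granulocyte genes ranged from 11647 to 65771 in Sohlh1 KO arrays, from 3953 to 16806 in Sohlh2 KO arrays and from 4254 to 5189 in WT arrays.

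Red blood cell genes had higher means in Sohlh1 KO as well, without passing the test. Of 26 listed genes 16 were tested. All 16 had a higher mean in Sohlh1 KO, 0 were called and 9 had an unadjusted p under 0.05 (limma), with a median of 1.14. Of the 16 genes, 4 (Ermap among them) passed the filter only through the Sohlh1 KO arrays, and the other 12 were all higher, with 6 at an unadjusted p under 0.05 and a median of 1.06. Under the chip block the median was 1.78 and Klf1 passed. Hba-a1, an alpha globin gene near the top of the scale, was at 14.67, 14.89, 14.77 and 15 in Sohlh1 KO and at 14.51, 15 and 14.92 in Sohlh2 KO, and the difference of 0.02 had an interval of -0.38 to 0.42. Levels this near the top of the scale can hide differences. Both knockouts were above WT for Hba-a1, by 1.79 in Sohlh1 KO (adjusted p = 3.5e-06) and by 1.76 in Sohlh2 KO (adjusted p = 1.08e-05).

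Other genes of the red cell lineage lay lower on the scale. Slc4a1, the anion exchanger of the red cell membrane, was at 7.41, 11.96, 11.19 and 12.73 in Sohlh1 KO and at 7.12, 7.61 and 8.07 in Sohlh2 KO (difference 3.22, adjusted p = 0.253, and 4.36 under the chip block, adjusted p = 0.0988). Sohlh1 KO 1 lay within the Sohlh2 KO range, and the other 3 Sohlh1 KO arrays lay above it. Alas2, the erythroid enzyme that starts haem synthesis, was at 9.71, 11.37, 11.07 and 10.55 in Sohlh1 KO and at 9.06, 9.04 and 9.48 in Sohlh2 KO, without overlap (difference 1.48, adjusted p = 0.0948). Klf1, the master transcription factor of red cell precursors, was at 5.28, 6.84, 7.26 and 9.01 in Sohlh1 KO and at 5.31, 5.01 and 5.2 in Sohlh2 KO (difference 1.92, adjusted p = 0.304, and 2.96 under the chip block, adjusted p = 0.0395). Ermap, a red cell membrane protein, was at 4.99, 6.63, 6.44 and 8.62 in Sohlh1 KO and at 4.68, 4.78 and 4.46 in Sohlh2 KO, where it was above background on 0 of 3 arrays, and was at least 2.89-fold higher in Sohlh1 KO (adjusted p = 0.253). The mean log2 level of the 16 genes ranged from 7.39 to 9.61 in Sohlh1 KO arrays, from 7.28 to 7.57 in Sohlh2 KO arrays and from 6.85 to 7.14 in WT arrays.

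Genes that red cell and platelet precursors share were among those called with chip as a block. Nfe2, a transcription factor of both lineages, was at 6.54, 8.08, 8.42 and 9.52 in Sohlh1 KO and at 5.71, 5.21 and 6.03 in Sohlh2 KO (difference 2.49, adjusted p = 0.081, and 3.32 with the block, adjusted p = 0.00826). Gfi1b, a repressor needed in both lineages, was at 4.62, 5.91, 6.74 and 8.54 in Sohlh1 KO and at 4.92, 4.54 and 4.74 in Sohlh2 KO, where it was above background on 0 of 3 arrays. It was at least 2.48-fold higher in Sohlh1 KO (adjusted p = 0.415, and 0.0304 under the block). Gfi1b lies 2.77 Mb from Sohlh1. Of the platelet genes, Ppbp, a chemokine stored in platelets, differed by 1.95 with the block (adjusted p = 0.0292) and Gp5, a platelet glycoprotein, by 1.22 (adjusted p = 0.0395). Over all arrays both overlapped between the knockouts, with differences of 0.88 for Ppbp and 0.41 for Gp5. Gfi1b and Ppbp passed the filter only through the Sohlh1 KO arrays.

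**Figure D3:**
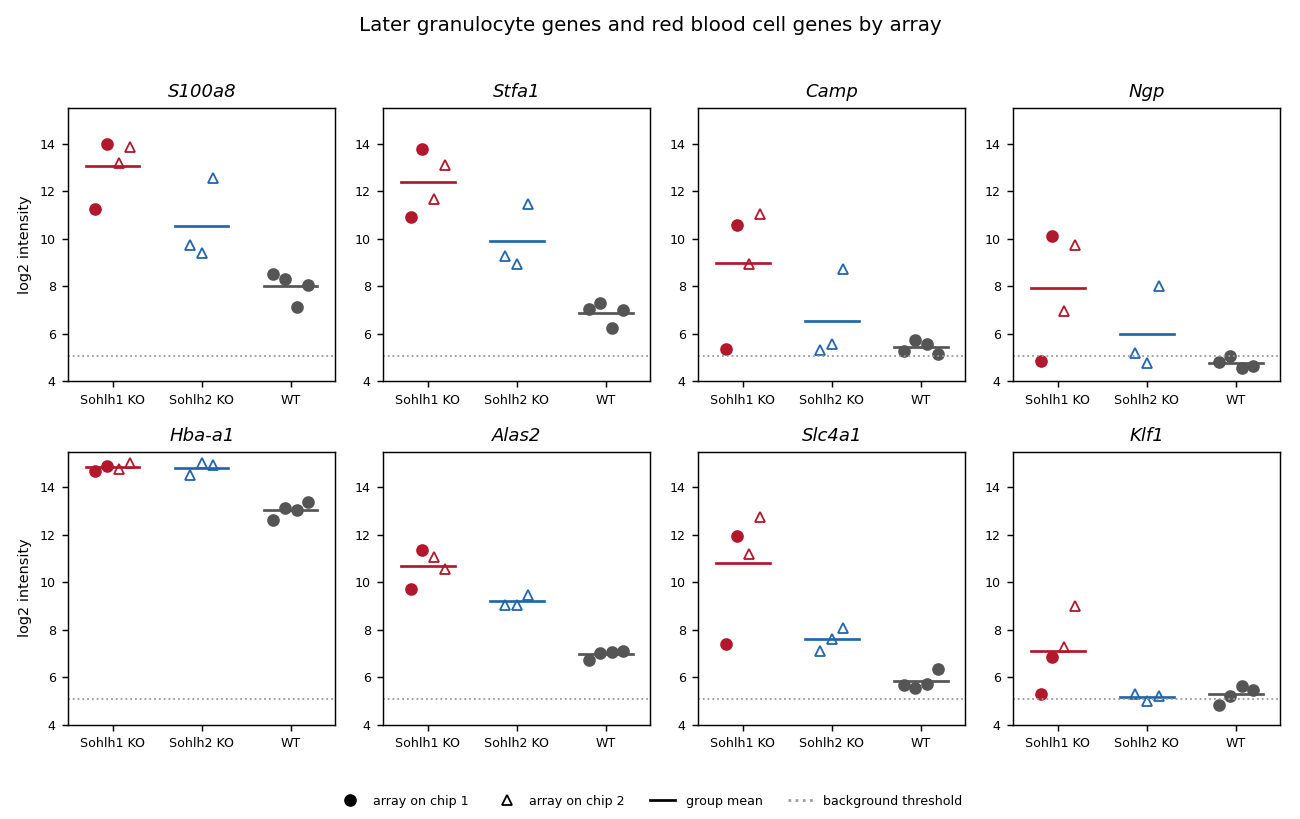
Log2 intensity (y axis) of 4 granulocyte genes expressed at later stages and 4 red blood cell genes on each array of Sohlh1 KO (n = 4), Sohlh2 KO (n = 3) and WT (n = 4), with circles for chip 1, open triangles for chip 2, a line at each group mean and a dotted line at the median background threshold. In Camp and Ngp one Sohlh1 KO array is low and one Sohlh2 KO array is high, while Hba-a1 lies between 14.51 and 15 in both knockouts.

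Other blood lineages differed less. Srgn, which encodes serglycin, the proteoglycan that packs granules of mast cells and granulocytes, was at 8.21, 8.08, 8.04 and 8.02 in Sohlh1 KO and at 6.94, 7.04 and 6.55 in Sohlh2 KO. Its Sohlh1 KO arrays lay close together and apart from Sohlh2 KO, and Srgn rose 2.37-fold in Sohlh1 KO (difference 1.25, 95% interval 0.91 to 1.58, adjusted p = 0.0154). Against WT (7.5 ± 0.22, SD, n = 4) it rose by 0.59 in Sohlh1 KO (adjusted p = 0.00653) and fell by 0.65 in Sohlh2 KO (adjusted p = 0.00745). Srgn was the only called gene among the 11 tested mast cell genes, all of which had a higher mean in Sohlh1 KO, with a median of 0.425. Of the 11 genes, 1 (Ms4a2) passed the filter only through the Sohlh1 KO arrays. The other 10 were all higher, with a median of 0.295, so these counts are descriptions. The mast cell proteases Cpa3, Cma1 and Mcpt4 differed by 0.44, 0.43 and 0.06 and did not pass (adjusted p = 0.642, 0.749 and 0.972). All 3 rose in both knockouts against WT, Cpa3 by 3.11 in Sohlh1 KO and by 2.67 in Sohlh2 KO. The Fc receptor chain Fcer1a, whose groups did not overlap, differed by 0.54 (adjusted p = 0.197), and its partner chain Ms4a2, above background on 0 of 3 Sohlh2 KO arrays, was at least 1.25-fold higher (adjusted p = 0.275).

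Unc13d, which primes granules for release in blood cells, was at 5.77, 5.91, 6.08 and 6.03 in Sohlh1 KO and at 4.97, 5.07 and 5.19 in Sohlh2 KO. It rose 1.83-fold in Sohlh1 KO against Sohlh2 KO (difference 0.87, 95% interval 0.61 to 1.13, adjusted p = 0.021). Against WT (5.86 ± 0.02, SD, n = 4) the difference was 0.09 in Sohlh1 KO (adjusted p = 0.579), while Unc13d fell by 0.78 in Sohlh2 KO (adjusted p = 0.000291). The call for Unc13d ended in 16 of 27 alternatives, and its other kept probe gave 0.03. Rac2, a small GTPase of blood cells, and Plac8, a protein abundant in myeloid cells, also did not overlap, with differences of 1.2 for Rac2 (adjusted p = 0.0748) and 1.29 for Plac8 (adjusted p = 0.142). Plac8 passed under the chip block (1.73, adjusted p = 0.0395).

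Macrophage and leukocyte genes were spread around 0, with 29 tested, 0 called and a median of 0.101 (4 higher and 3 lower at an unadjusted p under 0.05, limma). Csf1r, the receptor for macrophage colony-stimulating factor, differed by 0.13 (95% interval -0.29 to 0.56), Adgre1, a surface receptor of macrophages, by -0.09 (-0.65 to 0.48) and the complement gene C1qa by 0.15 (-0.2 to 0.49). Cd14, a receptor for bacterial lipopolysaccharide, was at 6.88, 7, 7.35 and 7.21 in Sohlh1 KO and at 7.57, 7.66 and 7.96 in Sohlh2 KO, lower and without overlap (difference -0.62, adjusted p = 0.178). All tested granulocyte and red blood cell genes had higher means in Sohlh1 KO, while 17 of the 29 macrophage and leukocyte genes did. What part these blood cells have in the differences of other genes below was not tested.

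Oocyte genes lost in both knockouts had a median difference near 0. The list of maternal-effect and oocyte cytoplasm genes had 52 members, 43 of them tested and 0 called. Its median was 0.0159, beside -2.74 for Sohlh1 KO against WT and -2.9 for Sohlh2 KO against WT, where 35 fell (16.4% of all genes did) and 37 fell (13%). At an unadjusted p under 0.05 stood 2 higher and 9 lower genes (limma), beside 3.63% of all genes higher and 4.88% lower, so the lower ones are a larger share of these 43 than of all genes. On 0 Sohlh1 KO arrays above background were 10 of the 43, and on 0 Sohlh2 KO arrays also 10, where a difference cannot be measured. The list of zona pellucida and oocyte secreted proteins had 14 tested members, 0 called, 1 at an unadjusted p under 0.05 and a median of -0.0856. Gdf9, the growth factor by which the oocyte acts on granulosa cells, was at 7.2, 7.25, 7.43 and 7.32 in Sohlh1 KO and at 6.94, 7.69 and 7.57 in Sohlh2 KO, against a WT mean of 13.43. The difference of -0.1 had an interval of -0.48 to 0.28. Its partner Bmp15 differed by -0.06 (-0.33 to 0.21), and Zp3 of the zona pellucida by -0.37 (-0.89 to 0.16). Zp1 was above background on 1 of 4 Sohlh1 KO arrays and 1 of 3 Sohlh2 KO arrays. The histone chaperone Npm2 was above background on 0 of 4 Sohlh1 KO arrays and 1 of 3 Sohlh2 KO arrays, as was the oocyte secreted protein gene Oosp1, and Elobl was above it on 0 of the 7.

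A few oocyte genes had lower levels in Sohlh1 KO, none of them past the test. Nlrp14, an oocyte NLR family gene, was at 6.75, 6.84, 6.46 and 6.84 in Sohlh1 KO and at 8.05, 7.43 and 7.77 in Sohlh2 KO, with a WT mean of 13.92. The groups did not overlap (difference -1.03, 95% interval -1.43 to -0.63, adjusted p = 0.0666), and its other kept probe gave -0.69. Padi6, an arginine deiminase of the oocyte's cytoplasmic lattices, was at 10.09, 9.2, 8.77 and 9.88 in Sohlh1 KO and at 10.27, 10.69 and 10.66 in Sohlh2 KO (difference -1.06, adjusted p = 0.185; WT mean 13.95). H1f8, the oocyte linker histone, was at 4.94, 4.75, 4.82 and 4.65 in Sohlh1 KO, above background on 0 of 4 arrays, and at 5.05, 5.68 and 5.72 in Sohlh2 KO, above it on 2 of 3, at least 1.3-fold lower in Sohlh1 KO (adjusted p = 0.161). Oas1c differed by -0.46 and Khdc3, of the subcortical maternal complex, by -0.58, while Ooep and Tle6 of the same complex differed by 0.16 and 0.03. Nlrp5, also of that complex, differed by -0.33 (95% interval -0.78 to 0.13), and its other kept probes gave -0.08 and 0.41.

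Outside the lists, Ftdc1 and Fbxw26 had the same pattern, both with WT means far above the knockouts. Ftdc1 was at 5.56, 5.11, 4.8 and 4.67 in Sohlh1 KO and at 6.62, 6.18 and 6.5 in Sohlh2 KO, without overlap (difference -1.4, adjusted p = 0.0522, and -1.7 under the chip block, adjusted p = 0.00826; WT mean 10.09). Ftdc1 was above background on 1 of 4 Sohlh1 KO arrays and below it on Sohlh1 KO 3 and 4, the arrays the block uses. Its second kept probe gave -0.11. Fbxw26 was at 4.73, 4.95, 5.14 and 4.43 in Sohlh1 KO, above background on 0 of 4 arrays, and at 5.8, 6.47 and 7.02 in Sohlh2 KO, at least 2.5-fold lower in Sohlh1 KO (adjusted p = 0.0626). Fbxw26 belongs to a family of similar F-box genes, so its probes may read related copies. Nlrp4c went the other way, at 8.97, 9.26, 9.19 and 9.33 in Sohlh1 KO and at 8.7, 8.74 and 8.85 in Sohlh2 KO (difference 0.43, adjusted p = 0.342). The other kept probe of Nlrp4c gave -0.02, at low means of 5.23 in Sohlh1 KO and 5.25 in Sohlh2 KO.

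**Figure D4:**
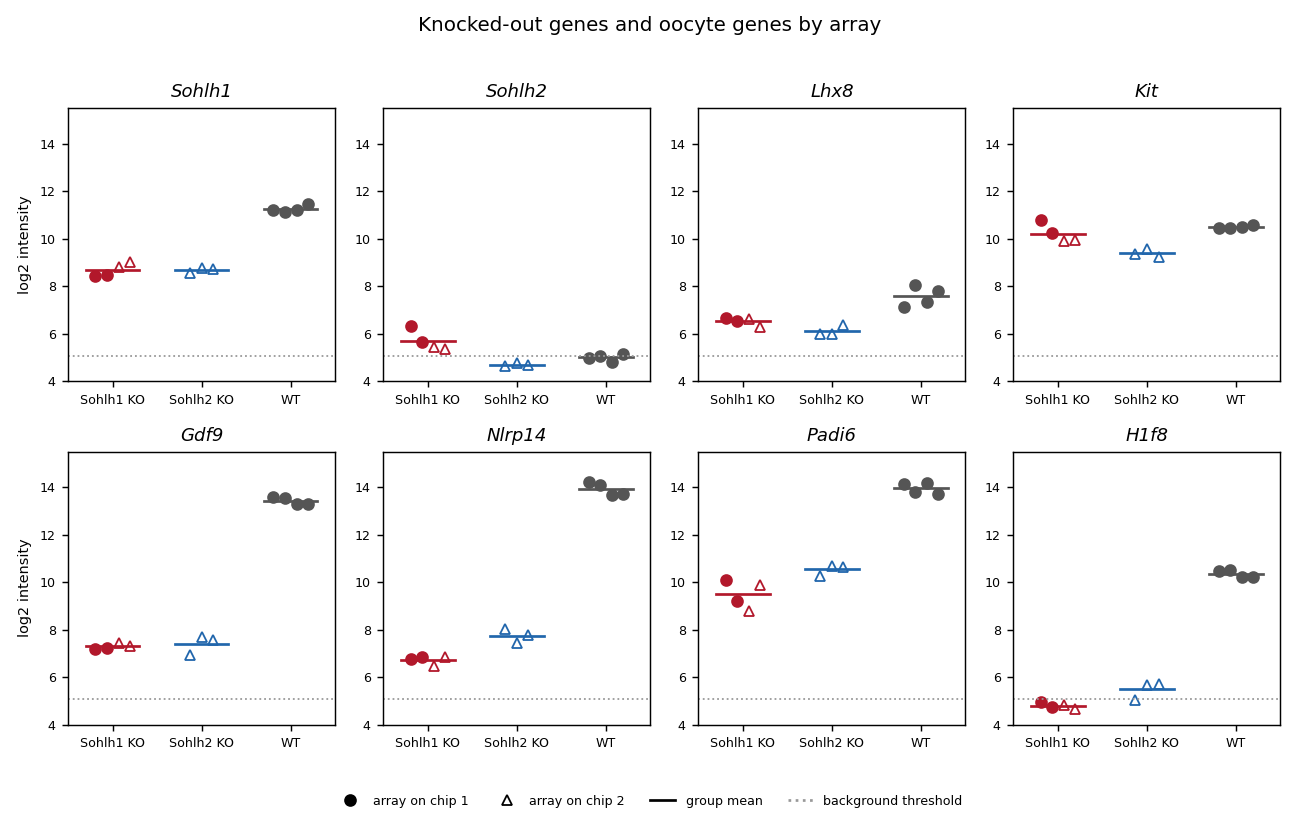
Log2 intensity (y axis) of Sohlh1, Sohlh2 and 6 oocyte genes on each array of Sohlh1 KO (n = 4), Sohlh2 KO (n = 3) and WT (n = 4), with circles for chip 1, open triangles for chip 2, a line at each group mean and a dotted line at the median background threshold. The knockouts overlap for Sohlh1, Lhx8 and Gdf9, Sohlh2 KO lies higher for Nlrp14, Padi6 and H1f8, and Sohlh1 KO lies higher for Sohlh2 and Kit.

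Among 20 tested transcription regulators of the oocyte 0 were called and 2 had an unadjusted p under 0.05 (limma), with a median of 0.0918. Lhx8, a homeobox factor of the early oocyte, was at 6.65, 6.56, 6.63 and 6.29 in Sohlh1 KO and at 5.98, 5.99 and 6.36 in Sohlh2 KO (difference 0.42, 95% interval -0.03 to 0.87, adjusted p = 0.627), and it fell in both knockouts against WT, by 1.05 in Sohlh1 KO and by 1.47 in Sohlh2 KO. Figla, the activator of zona genes, differed by -0.13 (-0.54 to 0.28) and Nobox, above background on 3 of 4 Sohlh1 KO arrays and 1 of 3 Sohlh2 KO arrays, by 0.39 (-0.09 to 0.86). Sall4, a germ cell factor, was above background on the same numbers of arrays, and the pluripotency factor Pou5f1 on 1 of 4 and 1 of 3, with WT means of 8.68 for Sall4 and 8 for Pou5f1. Kit, the receptor for KIT ligand on the oocyte surface, was at 10.8, 10.23, 9.9 and 9.96 in Sohlh1 KO and at 9.37, 9.59 and 9.23 in Sohlh2 KO, without overlap (difference 0.82, 95% interval 0.41 to 1.24, adjusted p = 0.148, and 0.53 under the chip block). Kit fell in Sohlh2 KO against WT by 1.09 (adjusted p = 0.000983), while its difference of -0.27 in Sohlh1 KO did not pass (adjusted p = 0.278). Mast cells also express Kit. Mast cell genes had a median of 0.425 in the same comparison, or 0.295 without Ms4a2, which was tested only through the Sohlh1 KO arrays. The part of mast cells in the Kit difference was not tested. Sohlh1 KO 1 was the highest array for Kit, as for the germ cell genes Ddx4, Dazl and Taf7l below. The part of germ cell content in the Kit difference was not tested either. Foxo3, which holds the oocyte at rest, differed by 0.31 without overlap (adjusted p = 0.382).

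Meiotic and germ cell genes that stayed high in both knockouts were close in level. Of 27 tested genes of meiotic prophase 0 were called and 1 had an unadjusted p under 0.05 (limma), with a median of 0.0424 beside 1.04 for Sohlh1 KO against WT and 0.898 for Sohlh2 KO against WT. Syce3, a protein of the synaptonemal complex, was at 10.57, 10.69, 11.16 and 10.43 in Sohlh1 KO and at 10.55, 10.44 and 10.55 in Sohlh2 KO, against a WT mean of 5.59. The cohesin Stag3 differed by 0.01 (95% interval -0.35 to 0.36) and Spo11, which makes the meiotic breaks, by 0.34 (-0.32 to 1). Syce1 differed by 0.55 (adjusted p = 0.415), and by 0.28 under the chip block.

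The germ cell and piRNA list had 40 tested members, 0 called, 3 at an unadjusted p under 0.05 and a median of 0.098. Taf7l, a germ cell subunit of the general transcription machinery, was at 13.11, 12.36, 12.65 and 12.15 in Sohlh1 KO and at 12.14, 12.26 and 12.44 in Sohlh2 KO. Ddx4, the germ cell RNA helicase VASA, was at 9.3, 8.07, 7.63 and 7.3 in Sohlh1 KO and at 7.62, 7.62 and 7.59 in Sohlh2 KO, and the RNA-binding protein Dazl was at 12.07, 10.94, 10.91 and 10.63 in Sohlh1 KO and at 10.86, 10.69 and 10.4 in Sohlh2 KO. Sohlh1 KO 1 was the highest array for Taf7l, Ddx4 and Dazl, and none of the 3 differences passed. The chip block, which rests the difference on chip 2, gave 0.13 for Dazl and -0.14 for Ddx4, against 0.49 and 0.47 over all arrays. Tex101, a germ cell surface protein, differed by -0.08, Rhox9, a reproductive homeobox gene, by -0.44 (-0.26 under the block), Dmrtc2 by 0.38 and the piRNA gene Piwil4 by 0.44 (adjusted p between 0.343 and 0.952). Ddx4 and Dazl, which mark germ cells, and Foxl2 and Fst, which mark pregranulosa cells, were above background on all 7 knockout arrays.

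Somatic genes of the ovary were also close. Of 34 tested pregranulosa and granulosa genes 0 were called and 4 had an unadjusted p under 0.05 (limma), with a median of -0.0379. Foxl2, the factor that maintains granulosa identity, was at 7.1, 6.08, 5.48 and 5.32 in Sohlh1 KO and at 5.47, 5.78 and 5.65 in Sohlh2 KO, with Sohlh1 KO 1 again the highest, and its difference was 0.36 over all arrays and -0.24 under the chip block. The activin antagonist Fst differed by 0.43 (adjusted p = 0.508, and 0.7 under the block). Hsd17b1, an enzyme of estrogen synthesis, and Inha, the alpha subunit of inhibin, both far below WT in each knockout, differed by -0.14 (95% interval -0.62 to 0.35) and 0.04 (-0.31 to 0.4). Irx5, a homeobox factor of the developing ovary, was at 8.32, 7.64, 7.87 and 7.83 in Sohlh1 KO and at 8.57, 8.53 and 8.71 in Sohlh2 KO, without overlap (difference -0.69, adjusted p = 0.165), and it rose in both knockouts against WT, by 1.04 in Sohlh1 KO and by 1.72 in Sohlh2 KO. Of 10 steroidogenic and theca cell genes 0 were called and 3 had an unadjusted p under 0.05, and Cyp17a1, of androgen synthesis, differed by -0.25 (-1.07 to 0.56), Hsd3b1 by -0.07 (-0.49 to 0.35) and Cyp11a1, the first enzyme of steroid synthesis, by 0.5 (0.08 to 0.92, and 0.33 under the block). The other kept probe of Cyp11a1 gave 0.14. Insl3, a hormone of theca and Leydig cells, differed by 0.3 (-0.39 to 0.98, and 0.48 under the block).

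Among the lists of other tissues, those of epithelium and of muscle had medians below 0 with 0 called members. Ovgp1, the oviduct glycoprotein, was at 8.93, 9.15, 9.23 and 9.24 in Sohlh1 KO and at 9.95, 9.75 and 9.97 in Sohlh2 KO, without overlap (difference -0.75, adjusted p = 0.115, with a WT mean of 13.27). The other kept probe of Ovgp1 gave 0.3, at low means of 5.12 in Sohlh1 KO and 4.82 in Sohlh2 KO. Wfdc2, a secreted protein of ductal epithelium, differed by -0.69 (adjusted p = 0.253), and the 25 tested epithelium genes had a median of -0.202 with 5 lower at an unadjusted p under 0.05 (4.88% of all genes). The 17 smooth muscle and pericyte genes had a median of -0.255, also with 5 lower at that level. Acta2, smooth muscle actin, was at 13.6, 13.79, 14.08 and 14.06 in Sohlh1 KO and at 14.51, 14.27 and 14.38 in Sohlh2 KO (difference -0.5, adjusted p = 0.264). The smooth muscle myosin Myh11 differed by -0.47 (adjusted p = 0.525) and the smooth muscle coactivator Myocd differed by -0.54 (adjusted p = 0.324). The other kept probes of Myocd gave -0.5 and 0.07. In Acta2, Myocd and Wfdc2 the Sohlh1 KO arrays of chip 2 were nearer to Sohlh2 KO, and the chip block gave -0.31 for Acta2, -0.33 for Myocd and -0.41 for Wfdc2. The 17 skeletal muscle genes had a median of -0.254, which ran from -0.369 to 0.103 over the alternatives. Their mean level was 7.58 in Sohlh2 KO 4. It was 6.57 and 6.46 in Sohlh2 KO 2 and 3, within the range of 6.34 to 6.75 of the Sohlh1 KO arrays. Mybpc1, a muscle myosin-binding protein, was at 7.19, 6.79, 7.72 and 7.5 in Sohlh1 KO and at 8.46, 8.08 and 8.38 in Sohlh2 KO (difference -1.01, adjusted p = 0.0839).

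Of the 30 tested multiciliated cell genes, 28 fell in Sohlh1 KO (16.4% of all genes did) and 26 in Sohlh2 KO (13%) against WT, and their median difference between the knockouts was 0.00406. Ccno, a regulator of centriole amplification in these cells, differed by -0.41 (95% interval -0.77 to -0.04, adjusted p = 0.52), and Fam183b, a gene of motile cilia, was below background on all 7 knockout arrays. The 11 fat tissue genes had a median of -0.0725, and the fat cell hormone adiponectin (Adipoq) was above background on 1 of 4 Sohlh1 KO arrays and 0 of 3 Sohlh2 KO arrays. The 19 interferon response genes had a median of -0.238, and Oasl2, an interferon-induced gene, was at 8.95, 8.5, 8.04 and 8.13 in Sohlh1 KO and at 9.19, 9.92 and 9.69 in Sohlh2 KO (difference -1.2, adjusted p = 0.178). The 22 proliferation genes had a median of -0.177, and -0.0118 under the chip block. Plk1, a mitotic kinase, was at 6.46, 8.49, 7.76 and 9.49 in Sohlh1 KO and at 10.05, 8.97 and 8.95 in Sohlh2 KO, with overlap (difference -1.28, adjusted p = 0.515, and -0.7 under the block). Ccnd1, a cyclin of the early cell cycle, differed by -0.46 without overlap (adjusted p = 0.338). The endothelial, Sertoli cell, p53, KIT and PI3K, stress, pancreas, kidney, imprinted and retinoic acid lists had medians between -0.0732 and 0.117, with 0 called members in each.

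**Figure D5:**
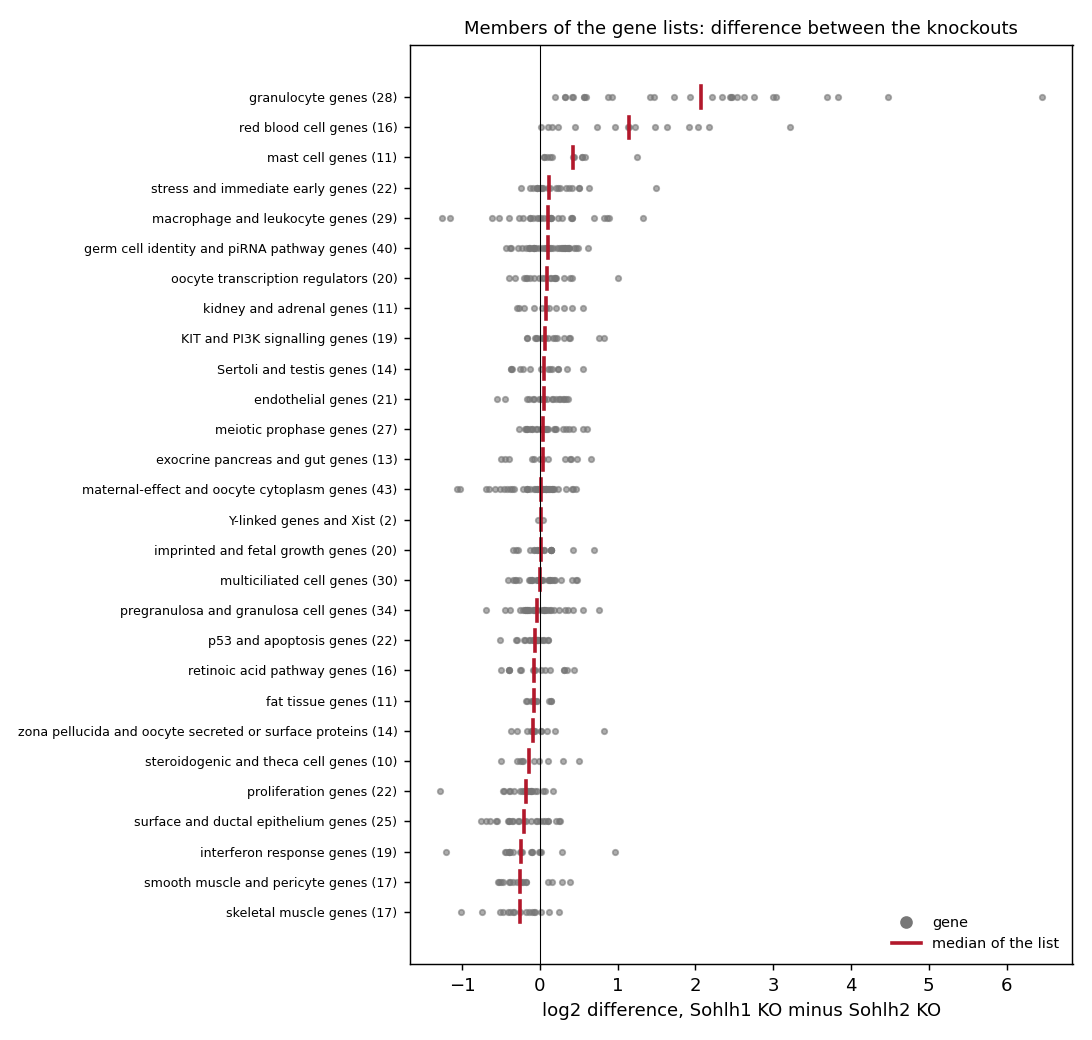
Log2 difference, Sohlh1 KO (n = 4) minus Sohlh2 KO (n = 3), of each tested gene (points, x axis) in 28 gene lists (rows, with the number of genes tested), and the median of each list (red bar). The granulocyte list has the highest median at 2.07 and the red blood cell list the next at 1.14, while the smooth muscle list has the lowest at -0.255.

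The remaining called genes belong to none of these groups. Efcab11, an EF-hand calcium-binding protein gene, was at 6.28, 6.24, 6.15 and 6.41 in Sohlh1 KO and at 6.97, 7.21 and 7.2 in Sohlh2 KO. The groups did not overlap, and Efcab11 fell 1.81-fold in Sohlh1 KO against Sohlh2 KO (difference -0.85, 95% interval -1.13 to -0.58, adjusted p = 0.0421). It fell in both knockouts against WT (7.88 ± 0.14, SD, n = 4), by 1.61 in Sohlh1 KO and by 0.75 in Sohlh2 KO. The call ended in 18 of 27 alternatives, with an adjusted p between 0.0112 and 0.194 over all of them and a value of 0.0573 under the chip block.

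Under the chip block 5 genes passed as lower, namely Ftdc1, Jmy, Tedc1, Rab23 and Usp25. Of the 4 Sohlh1 KO arrays, 1 was above background for Ftdc1, and 2 each for Jmy and Usp25. On Sohlh1 KO 3 and 4, Ftdc1, Jmy and Usp25 lay below the background levels of 5.14 and 5.12 (Usp25 at 4.74 and 4.93). The sizes of their block differences therefore rest on values below background. Jmy, a regulator of actin and of p53, was at 5.28, 5.32, 4.6 and 4.81 in Sohlh1 KO and at 6.07, 5.75 and 5.82 in Sohlh2 KO (-1.17 with the block, adjusted p = 0.00607). Tedc1, which acts at centrioles, was at 6.16, 5.79, 5.16 and 5.72 in Sohlh1 KO and at 7.03, 6.85 and 6.8 in Sohlh2 KO (-1.46, adjusted p = 0.0214). Usp25, a deubiquitinase, differed by -1.57 (adjusted p = 0.0444) and Rab23, a GTPase of hedgehog signalling, by -1.03 (adjusted p = 0.025). Rab23 overlapped over all arrays, where Sohlh1 KO 1 and 2 were at 7.1 and 7.48 and Sohlh1 KO 3 and 4 at 6.43 and 6.19.

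Pisd-ps2, Rbm38, Paqr9 and B4galnt1 were also higher under the block and belong to none of the blood groups above. Rbm38, an RNA-binding target of p53, was at 8.52, 8.51, 8.68 and 8.68 in Sohlh1 KO and at 7.95, 7.54 and 7.75 in Sohlh2 KO (difference 0.85, adjusted p = 0.0522, and 0.93 with the block, adjusted p = 0.0444). Sohlh1 KO lay near WT (8.86) and Rbm38 fell in Sohlh2 KO against WT by 1.11 (adjusted p = 4.36e-05). The pseudogene Pisd-ps2, whose probe may read its parent gene, was at 7.39, 8.28, 8.32 and 8.21 in Sohlh1 KO and at 6.9, 6.73 and 6.15 in Sohlh2 KO (1.67 with the block, adjusted p = 0.0401). The progestin receptor family gene Paqr9 and the ganglioside enzyme gene B4galnt1 were above background on 0 of 3 Sohlh2 KO arrays, were at least 1.54-fold (adjusted p = 0.278) and at least 1.41-fold higher (adjusted p = 0.343) in Sohlh1 KO, and passed the filter only through the Sohlh1 KO arrays. The other kept probe of Paqr9 gave a difference of 0.14. The eosinophil-associated ribonuclease Ear6 (at least 2.26-fold higher with an adjusted p = 0.382, and 0.00584 with the block), one of a family of similar genes and tested only through the Sohlh1 KO arrays, and the myeloid receptor Trem3 (2.04, adjusted p = 0.0444) completed the called blood cell genes.

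Over all genes, the arrays of the knockouts did not overlap for 402 genes that were higher (3.01%) and 614 that were lower (4.6%), together 7.61% of all genes. Among those not called were, besides the genes already named, Akr1c19, a member of the aldo-keto reductase family, at 9.69, 10.19, 9.87 and 10.18 in Sohlh1 KO and at 9.16, 9.17 and 8.99 in Sohlh2 KO (difference 0.88, adjusted p = 0.061), and Arhgap15, a Rac regulator, at least 1.63-fold higher (adjusted p = 0.061). On the lower side stood Srpr, a subunit of the signal recognition particle receptor, at 8.37, 7.65, 7.67 and 7.57 in Sohlh1 KO and at 9.31, 9.08 and 8.79 in Sohlh2 KO (difference -1.25, adjusted p = 0.0748), and Cadps, which primes dense-core vesicles, at least 1.82-fold lower (adjusted p = 0.0697). Sez6l, Macc1, Mcoln2, Pla2g3 and Gpr137b-ps, the rest of the 20 with the smallest p outside the calls, had an adjusted p between 0.061 and 0.0697.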

How the data were processed

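Total RNA of newborn ovaries was measured on 11 bead arrays, which were read with BeadStudio 3.2, per the submitters' processing notes. The deposited table holds linear intensity values, and the deposited series matrix holds the log2 of the same values. The intensity values, as deposited, had the same lowest (98.39), median (152) and highest (33822) value on every array, so they had already been quantile normalized, although the step is not given in the sources used here. No detection p-values were in the table, against what the planned design assumed, so 1276 olfactory receptor probes were taken as negative controls. Background was corrected by normexp (offset 16), followed by quantile normalization and log2, in limma 3.58.1 under R 4.3.3 with statmod 1.5.0. Background on an array was the 95th percentile of its negative probes, and probes above it on at least 3 of the 11 arrays were kept (24451 of 45281). Signal over background was found for 45.2% to 52.6% of probes per array, and the number of arrays limits the precision. The kept probe with the highest mean stood for each gene (13350 genes, 5169 with several kept probes).

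The fit had a mean for each of the 3 genotypes and used the 11 arrays together, which leaves 8 residual degrees of freedom, with Benjamini-Hochberg adjustment over all genes of a comparison and calls at an adjusted p under 0.05. The chips were read from the array names. For a gene above background on 0 arrays of the lower group, that group's values were raised to the lowest level above background, and a bound is given. Members, gene lists and the rule for named genes were chosen with earlier results of these data known. The rule names Sohlh1, Sohlh2, every called gene (also with chip as a block), the 10 uncalled genes in each direction with the smallest p among those not overlapping, and up to 6 genes of each list. Of the 123 genes followed, 85 come from it and 38 were chosen after their values were seen. Probes without a symbol were left out. The linear model was tested on simulated data. Replicate numbers did not pair the samples: deviations of samples with the same title number correlated at -0.201, -0.116 and 0.0295.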

Additional observations from a re-analysis of the deposited data

Results flagged for a closer look

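Among 151 gene and list values of the 4 Sohlh1 KO arrays, 6 had 1 array far from the other 3 by Dixon's ratio of the gap to the whole range. Chance flags about 1 in 20 such groups. Csf1r was at 8.45 in Sohlh1 KO 1 and at 7.7 to 7.76 in the others. Adgre1 was at 8.72 in Sohlh1 KO 2 and at 8.13 to 8.21 in the others. Pisd-ps2 was at 7.39 in Sohlh1 KO 1, below 8.21 to 8.32 in the others, and Srpr was at 8.37 in the same array, above 7.57 to 7.67. Rac2 was at 7.38 in Sohlh1 KO 4 and at 6.55 to 6.66 in the others. The mean of the Y-linked genes and Xist, with 2 tested members, was 7.75 in Sohlh1 KO 3 and 7.99 to 8.03 in the others. Of these, the arrays set apart lay toward the Sohlh2 KO level for Pisd-ps2 and Srpr.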

How the results depend on the processing

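In the direct comparison 5 genes were called. The count was 1 without background correction, 1 from the series matrix values, 1 with only the 7 knockout arrays, 8 with cyclic loess, 13 when every kept probe was tested, 45 with array weights, 20 with a variance trend and robust fit, 26 with chip as a block, 21 on chip 2 alone and 3 with a 2-fold minimum. Leaving out 1 array gave between 1 and 69 (69 without Sohlh1 KO 1). With chip as a block the count was between 10 and 77 when 1 array was left out (77 without Sohlh1 KO 1 or 2, 49 without Sohlh1 KO 3, 10 without Sohlh1 KO 4, 12 to 15 without a Sohlh2 KO array). It was 5 with median scaling, with no filter and with a strict filter (99th percentile), 7 with chip as a random block and 4 with an offset of 50, added after seeing the data. The replicate block by the numbers of the titles gave 7 and by those of the descriptions 1, but the numbers do not pair the samples, and same-numbered deviations correlated at 0.0278 to 0.126 by the descriptions. The Sohlh1 difference stayed between -0.122 and 0.23 and passed nowhere. The Sohlh2 difference was 0.305 without background correction and from the series matrix values, 0.536 with the offset of 50, and passed with array weights (0.861). With 1 array left out it ran from 0.794 to 1.12. No followed gene turned its direction with a call on either side. Mpo lost its call without background correction (adjusted p = 0.0531) and with the series matrix values (adjusted p = 0.0523), and kept it in the other 25 of 27 alternatives. Ctsg lost it in 10, Srgn in 6, Unc13d in 16 and Efcab11 in 18. The granulocyte median ran from 1.37 to 2.83 and the red blood cell median from 0.553 to 1.78. The causes were not tested. All alternatives start from values that were already quantile normalized. With 7 arrays, and with WT and Sohlh2 KO on different chips, genes near background could differ without being called.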

Other observations

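Some genes differed between arrays of 1 genotype more than between the knockouts, and they were picked after their values were seen. Tm7sf3, on chromosome 6, was at 10.26, 10.06, 9.47 and 9.74 in Sohlh1 KO and at 4.32, 8.75 and 8.53 in Sohlh2 KO (difference 2.68, adjusted p = 0.312). Its neighbour Fgfr1op2 was at 10.94, 10.65, 10.39 and 10.4 in Sohlh1 KO and at 7.73, 9.64 and 9.4 in Sohlh2 KO (1.67, adjusted p = 0.185). On these probes of both genes Sohlh2 KO 2 was the lowest of the 7 arrays. The other kept probe of Fgfr1op2 did not share the difference, with means of 7.61 in Sohlh1 KO and 7.8 in Sohlh2 KO (-0.2). Ctsc, the protease that activates granule serine proteases, was at 7.23, 7.94, 4.96 and 5.55 in Sohlh1 KO and at 9.99, 7.68 and 7.36 in Sohlh2 KO (difference -1.92, adjusted p = 0.416), a spread opposite to that of Mpo, with -3.09 under the chip block (adjusted p = 0.0777). Twistnb was at 7.11, 6.64, 6.64 and 6.81 in Sohlh1 KO and at 7.09, 8.75 and 8.75 in Sohlh2 KO (difference -1.4, adjusted p = 0.184). The other kept probe of Twistnb gave a larger difference of -2.09, with means of 6.34 in Sohlh1 KO and 8.43 in Sohlh2 KO.

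Genes of a multicopy family on chromosome 14 were lower in Sohlh1 KO without passing. Gm5796 was at 10.31, 9.23, 9.13 and 10.06 in Sohlh1 KO and at 11.61, 11.15 and 11 in Sohlh2 KO (difference -1.57, adjusted p = 0.0795), and Gm3696 was at 5.13, 4.48, 4.62 and 5.59 in Sohlh1 KO and at 7, 6.65 and 6.13 in Sohlh2 KO (-1.64, adjusted p = 0.111). Gm2897 differed by -1.65 (adjusted p = 0.301). Their probes may read the same copies. The metabolic enzyme Me1 was at 9.78, 9.07, 9.25 and 8.9 in Sohlh1 KO and at 8.41, 7.49 and 7.61 in Sohlh2 KO (1.41, adjusted p = 0.201), and the surfactant protein gene Sftpd at 5.6, 6.66, 6.4 and 7.27 in Sohlh1 KO and at 7.83, 7.69 and 8.11 in Sohlh2 KO (-1.39, adjusted p = 0.142).

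Genes near the knocked-out loci were counted, since targeted loci can carry flanking sequence of another strain. Within 5 Mb of Sohlh1 lay 133 tested genes, 0 of them called over all arrays and 1, Gfi1b at 2.77 Mb, under the chip block, with 5 higher and 8 lower at an unadjusted p under 0.05 (9.77%, limma), and within 5 Mb of Sohlh2 lay 43, 0 called in either fit, with 1 higher and 1 lower (4.65%), beside 8.51% of all genes.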
